A study of Homo sapiens with 93 samples.

Results

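The signalling lymphocytic activation molecule (SLAM) family cluster is a run of immune receptor genes on human chromosome 1. Its 7 genes, SLAMF6, CD84, SLAMF1, CD48, SLAMF7, LY9 and CD244, were chosen by Ensembl identifier from a table of 14000 genes, and all 7 were present. They occupied rows 1062 to 1068 of the table without a gap, so no other measured feature lay between them. The mark counted is H3K36me3, histone H3 trimethylated at lysine 36, and the assay is CUT&Tag, in which an antibody guides a transposase to the mark and the cut DNA is sequenced. The 93 samples form 1 group with 1 library per line: untreated lymphoblastoid cell lines (LCLs), grown out of B cells by infection with Epstein-Barr virus, each line derived from a single donor. Per the labels, the lines were grown in 4 batches of about 20 to 35, and the labels do not say which line was in which batch. The report therefore describes differences between lines, in which line, culture and library differences are held together.

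SLAM family proteins are cell surface receptors of the immunoglobulin superfamily. Most of them bind a copy of themselves on a neighbouring cell and signal through tyrosine motifs in the cytoplasmic tail that recruit small adaptors such as SAP. CD48 is the exception in form, since it is tethered to the membrane by a lipid anchor, and it serves as the ligand of CD244. H3K36me3 is deposited over gene bodies by SETD2 as RNA polymerase II elongates, so that transcribed genes carry the mark along their length.

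In RefSeq on GRCh38.p14 the cluster runs from the start of SLAMF6 to the end of CD244, chr1:160485036-160862887, a span of 378 kb. SLAMF6 (ENSG00000162739) lies at chr1:160485036-160523255, CD84 (ENSG00000066294) at chr1:160541098-160579496 and SLAMF1 (ENSG00000117090) at chr1:160608106-160647044. CD48 (ENSG00000117091) follows at chr1:160678746-160711822 and SLAMF7 (ENSG00000026751) at chr1:160739057-160754821. LY9 (ENSG00000122224) at chr1:160796174-160828255 and CD244 (ENSG00000122223) at chr1:160830160-160862887 close the cluster. The spans of the 7 genes do not overlap each other. The gap between SLAMF7 and LY9, 41.4 kb, is the widest of the cluster, and that between LY9 and CD244, 1.90 kb, is the narrowest. Other RefSeq genes overlap 5 of them, among them the long noncoding CD84-AS1 at CD84 and the pseudogene PPIAP37 at CD244. The assay sequences cut DNA, so its reads cannot tell such overlapping genes apart from the named gene.

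Promoters are shown for SLAMF1 and CD48, the neighbours whose levels were most alike across lines, and for CD244, which varied most between lines. Each sequence holds the 250 bases before the RefSeq start of the gene on GRCh38.p14, 5′ to 3′ on the gene's own minus strand, and capitals mark a motif match. SLAMF1 covers chr1:160647045-160647294, CD48 covers chr1:160711823-160712072 and CD244 covers chr1:160862888-160863137.
SLAMF1: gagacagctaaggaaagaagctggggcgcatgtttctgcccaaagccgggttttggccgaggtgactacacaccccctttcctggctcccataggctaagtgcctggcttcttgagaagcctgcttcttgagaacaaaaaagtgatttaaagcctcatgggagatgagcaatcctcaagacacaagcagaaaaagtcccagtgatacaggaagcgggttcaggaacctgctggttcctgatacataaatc
CD48: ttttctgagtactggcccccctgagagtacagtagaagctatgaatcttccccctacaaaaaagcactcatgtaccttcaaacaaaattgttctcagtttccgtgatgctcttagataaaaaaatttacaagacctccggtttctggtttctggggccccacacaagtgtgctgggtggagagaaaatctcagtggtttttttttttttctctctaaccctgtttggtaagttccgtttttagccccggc
CD244: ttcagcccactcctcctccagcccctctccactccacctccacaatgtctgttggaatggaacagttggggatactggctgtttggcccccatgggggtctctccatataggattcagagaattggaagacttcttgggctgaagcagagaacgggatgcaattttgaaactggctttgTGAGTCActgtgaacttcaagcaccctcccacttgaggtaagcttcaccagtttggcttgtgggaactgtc

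The table of promoters held 4 of the 7 genes, SLAMF6, SLAMF1, CD48 and CD244. They contained 1, 4, 4 and 1 CpG, in that order, against a median of 11 over 27305 promoters of the same length. The search took 7 motifs on both strands: the TATA box TATAAA, the PU.1 core GAGGAA, the ETS core CCGGAA, the AP-1 site TGANTCA, the interferon-stimulated response element, the GC box GGGCGG and the octamer ATTTGCAT. None of these letters was found in the SLAMF1 or CD48 window. The CD244 window held the AP-1 letters 71 bases before the start, as did 6.6% of all promoters. The SLAMF6 window held the PU.1 letters 36 bases before the start, as did 23.4% of all promoters. The other motifs occurred in 11.1% (TATA box), 14.8% (ETS core), 3.07% (interferon response element), 42.3% (GC box) and 1.66% (octamer) of promoters. A match describes the letters in this window and says nothing of binding.

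The shallowest library held 2842955 counts and the deepest 24325746, around a median of 14883653. All 7 genes passed the filter of at least 10 counts in at least 47 libraries, as did 13915 of the 14000 features. The lowest raw count of any of them in any library was 49, for CD244. Levels are given as CPM, counts scaled to 1000000 per library after TMM adjustment of the library size. The sources used here do not say whether PCR duplicates were removed, and the error given covers counting alone.

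The first question was how strongly each gene of the cluster was marked. SLAMF1 and CD48 carried the most H3K36me3 and CD244 the least, and each of the 7 genes was counted in every line. SLAMF1, a receptor on activated lymphocytes that also serves measles virus as an entry receptor, had 139 CPM in the lowest line, a median of 272 CPM and 445 CPM in the highest. CD48, first described as a surface antigen that Epstein-Barr virus raises on B lymphoblasts, had 109, 179 and 304 CPM at the lowest, median and highest line. SLAMF1 thus stood above 96.8% of all features by its median, and CD48 above 91.5%.

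The remaining genes stood lower. SLAMF6, known as NTB-A on natural killer cells and also carried by T and B cells, had 51 CPM in the lowest line, a median of 105.7 CPM and 189 CPM in the highest. SLAMF7, the antigen bound by the myeloma antibody elotuzumab, ran from 49.2 through a median of 78.9 to 136 CPM. CD84, a receptor on B cells, platelets and follicular helper T cells, ran from 35.2 through a median of 70.5 to 128 CPM. Their ranges over lines overlap each other and lie below the SLAMF1 median in every line.

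LY9 and CD244 were the least marked members. LY9, the receptor also called CD229, ran from 23 through a median of 45.1 to 84.9 CPM, close to the median of 42.1 CPM over all features. CD244, the 2B4 receptor of natural killer and cytotoxic T cells, ran from 14.6 through a median of 26.6 to 99.8 CPM. By its median CD244 stood above 35.9% of features. Identifiers could not be paired with symbols for other genes (0 of 14000 matched the reference table), so markers of B cells and of other cell types were not used here to check the LCL label.

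**Figure D1:**
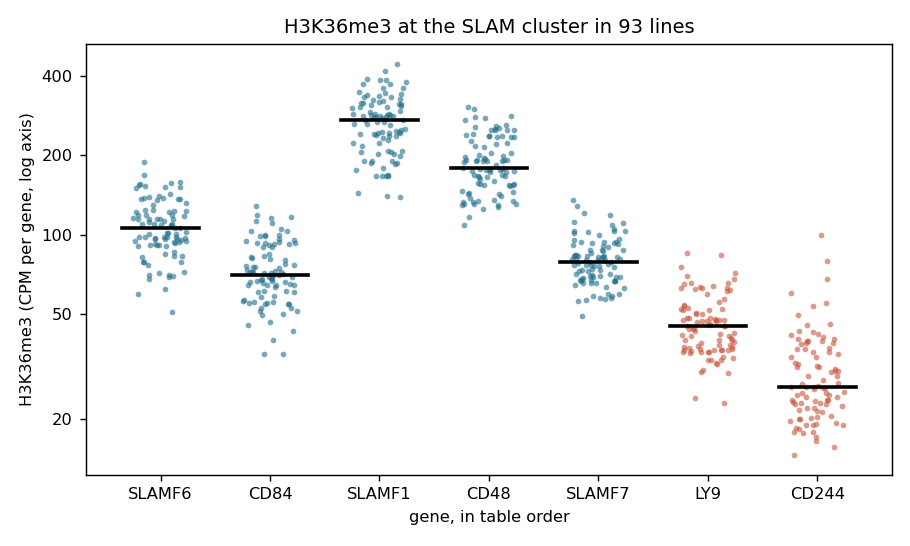
H3K36me3 level (CPM per gene, log axis) of the 7 SLAM cluster genes in table order. Each point is 1 of 93 lines and the black bar is the median. SLAMF1 and CD48 lie highest, and CD244 has a tail of lines up to 99.8 CPM above its median of 26.6 CPM.

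Levels of different genes were compared per kilobase of RefSeq gene span. The sources used here do not give the counted interval, and the span stands in for it. In medians of CPM per kilobase the order was SLAMF1 (6.98), CD48 (5.41), SLAMF7 (5.0), SLAMF6 (2.77), CD84 (1.84), LY9 (1.40) and CD244 (0.812). Each of the 6 neighbours in this order differed when the difference was taken within each line (p = 1e-05 for each, two-sided sign-flip permutation test, the smallest it can give, n = 93). The order was taken from the same values, so these p-values are no test of it. A counted interval other than the span would shift a difference by the same amount in every line. How far the differences recurred across lines, with these spans, is given by the counts of lines that follow. SLAMF1 exceeded CD48 by 0.26 ± 0.17 log2 (SD) in 89 of 93 lines. CD48 exceeded SLAMF7 by 0.14 ± 0.21 log2 in 64 lines, a mean difference smaller than its spread over lines. The step down to SLAMF6 was 0.87 ± 0.27 log2 and held in all 93 lines. SLAMF6 exceeded CD84 by 0.57 ± 0.30 log2, also in 93 lines, CD84 exceeded LY9 by 0.40 ± 0.46 log2 in 77 lines, and LY9 exceeded CD244 by 0.68 ± 0.51 log2 in 85 lines. SLAMF7 has a span of 15.8 kb, against 32.1 to 38.9 kb for the others. Without length scaling, SLAMF7 was 0.41 log2 below SLAMF6.

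The second question was whether the mark at each gene varied between lines by more than it does at features of similar count. Of the 7 genes, 6 did, against 18.6% of the 13915 features tested (2586 features, edgeR's deviance goodness-of-fit test against the trended dispersion, Benjamini-Hochberg adjusted over all features; the covariates were library total and dynamic range). Dynamic range means here how far the strongest features stand above the weakest in a library, as the difference in median log2 CPM between the highest and the lowest quintile of mean level. The members had log2 ratios of own to trended dispersion from 0.13 to 2.15, all above 0, as had 32% of all features. The median over all features was -0.51.

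CD244 varied most. Its dispersion was 4.45 times the trend (adjusted p = 2.34e-37, edgeR goodness-of-fit). Its coefficient of variation over lines was 44.4%, where counting error alone would give 6.01%. In 6 of 93 lines CD244 exceeded 2 times its median CPM, with values of 99.8, 79.3, 67.7, 60.1, 55.1 and 53.8 CPM, and no line fell below 0.5 times the median. As many such lines or more were seen in 1.72% of features. The other 6 genes had no line above 2 times their median, as had 84.5% of features.

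LY9 and CD84 came next with these covariates. LY9 had a dispersion 2.45 times the trend (adjusted p = 1.15e-11, edgeR goodness-of-fit) and a coefficient of variation of 26.9%. CD84 had 2.41 times the trend (adjusted p = 1.11e-11) and 27%. The coefficients of variation of SLAMF1, SLAMF6 and CD48 were close to these, at 25.1%, 24.9% and 24.6%. SLAMF6 stood at 1.76 times the trend (adjusted p = 5.21e-05). SLAMF6 and CD84 each had 1 line below 0.5 times the median, line L79 for SLAMF6 and line L35 for CD84. Line L79 was low in both genes, since its CD84 level of 35.36 CPM lay just above the cutoff, against 35.17 CPM in L35. In L35 SLAMF6 was not low, at 108.3 CPM. No line below 0.5 times the median was seen in 68.9% of features. Without covariates LY9 and CD84 were still called, with smaller log2 ratios of 0.58 for LY9 and 0.72 for CD84, against 1.29 and 1.27 with them. SLAMF1 then stood at 0.66, above LY9, so the order of these genes holds only with the covariates. With the covariates the strongly marked genes CD48 and SLAMF1 lay closer to the trend than LY9, CD84 and SLAMF6 did. CD48 stood at 1.52 times (adjusted p = 0.00408, edgeR goodness-of-fit) and SLAMF1 at 1.51 times (adjusted p = 0.00455). Without covariates the log2 ratio was 0.52 for CD48 and 0.66 for SLAMF1, against 0.60 for each with them. SLAMF7 did not pass the test, with 1.10 times the trend (adjusted p = 0.842) and the lowest coefficient of variation of the cluster, 20.9%.

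How far the covariates accounted for this spread differed between the genes. Library total and dynamic range accounted for 42.6% of the variance of log2 CPM at SLAMF1, 35.7% at CD48, 29.2% at SLAMF7 and 28.1% at SLAMF6. They accounted for 9.84% at CD244, 7.56% at CD84 and 0.424% at LY9, against a median of 35.7% over the features tested. The first 10 principal components of all features held 88.3% of the variance at CD48 and 84.1% at SLAMF1, but 46.6% at LY9, against a median of 65.5%. With those 10 components as covariates, 3 of 7 genes passed the test (18.2% of all features were called), namely CD84 (log2 ratio 1.18, adjusted p = 1.14e-08), LY9 (1.41, adjusted p = 6.19e-12) and CD244 (1.70, adjusted p = 2.68e-17, edgeR goodness-of-fit for each). By DESeq2's stricter dispersion outliers CD244 was the single gene called, against 1.86% of features.

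**Figure D2:**
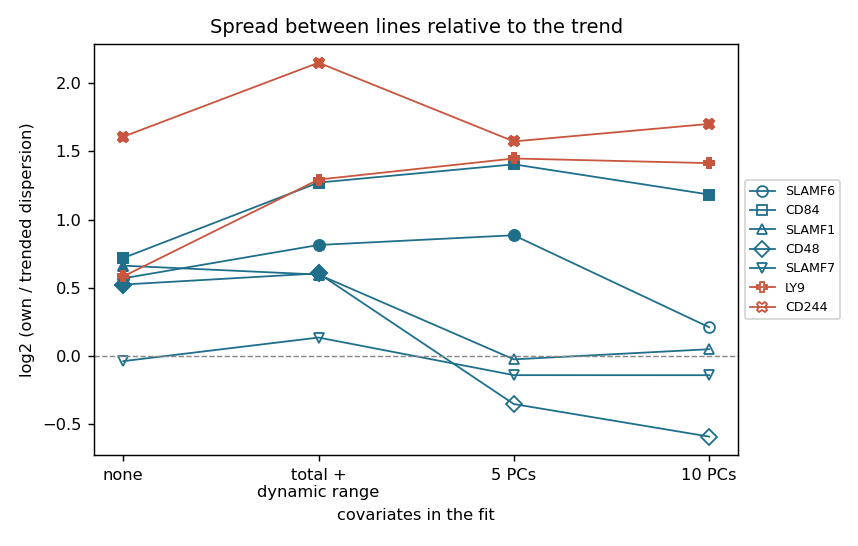
Ratio of own to trended dispersion (log2) for each gene under 4 sets of covariates: none, library total and dynamic range, 5 and 10 principal components (PCs). Filled symbols passed the goodness-of-fit test at an adjusted p of 0.05 and open symbols did not; CD244, LY9 and CD84 are filled throughout, while SLAMF1 comes to lie close to the trend and CD48 below it once 5 components are included.

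The relation of each gene to dynamic range and library total was tested next. Dynamic range is itself computed from the strongest and weakest features. SLAMF1 and CD48, above 96.8% and 91.5% of features by median, are among the strongest, so a positive r there is partly built in. Levels of 5 genes were related to dynamic range, as were 73.5% of features at an adjusted p under 0.05 (Pearson correlation, adjusted over all features). SLAMF1 had r = 0.649 (rho = 0.681, permutation p = 1e-05 for each, r = 0.676 without the 2 farthest libraries). CD48 had r = 0.598 (rho = 0.616), SLAMF7 r = 0.525 (rho = 0.525), SLAMF6 r = 0.507 (rho = 0.534) and CD84 r = 0.257 (rho = 0.272). LY9 (r = -0.0571, permutation p = 0.584) and CD244 (r = -0.0706, permutation p = 0.503) did not pass. Among the 47 deeper libraries the values were 0.729 for SLAMF1 and 0.775 for CD48, and among the 46 shallower ones 0.423 and 0.331. CD84 had r = 0.349 among the deeper and 0.0160 among the shallower libraries, where it was not called.

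Library total was related to 3 genes, against 62.3% of features: SLAMF1 (r = -0.395, rho = -0.371), CD48 (r = -0.298, rho = -0.269) and CD244 (r = -0.227, rho = -0.146). None of these was called within depth classes. The classes were split on library total itself, so each holds a narrower range of it and fewer libraries. They therefore cannot decide whether the relation holds. SLAMF1 had r = -0.165 among the 46 shallower and 0.155 among the 47 deeper libraries (permutation p = 0.273 and 0.295).

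The third question was whether neighbouring genes of the cluster varied together across lines. Correlations were taken on log2 CPM after library total and dynamic range had been removed by regression. Of the 21 pairs, 14 were called, all with positive r, against 42.6% of the 83042 pairs of features 1 to 6 rows apart called in either direction and 35.8% called with positive r (Pearson correlation, Benjamini-Hochberg adjusted over all these pairs at 0.05). These shares over all pairs, here and below, are not matched for distance. All pairs hold the distances about equally, whereas 6 of the cluster's pairs were adjacent and 1 was 6 rows apart. Over all features the mean r fell from 0.276 at 1 row to 0.108 at 6 rows. The pairs fell along the cluster. SLAMF6, CD84, SLAMF1, CD48 and SLAMF7 made up a run of 5 consecutive genes in which all 10 pairs were called, with r from 0.545 to 0.833 and rho from 0.507 to 0.844. This grouping was made after the values had been seen and carries no test of its own.

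SLAMF1 and CD48 were the most alike. They had r = 0.833 and rho = 0.844 (permutation p = 1e-05 for each, the smallest it can give, adjusted p = 3.77e-23, n = 93), and r = 0.838 once the 2 most distant lines were left out. These p-values, like the others across lines, take the lines as independent, which lines of the same batch need not be. In the deposited order of the lines, the residuals of both genes were mostly below 0 from L35 to L82. They were mostly above 0 from L16 to L64, the end of that order. These stretches were picked from the values, and the residuals of CD48 were mostly below 0 before L35 as well. Whether the order follows the batches is not given. Among the 46 shallower libraries r was 0.875, and among the 47 deeper ones 0.773. Of the 10 lines highest in SLAMF1, 5 were among the 10 highest in CD48, and of the 10 lowest, 6 were shared. Among 13708 features lying more than 100 rows away, 0 had a higher r with SLAMF1 than CD48 had, and 1 had a higher r with CD48 (0.842) than SLAMF1 had. In the same comparison 0 distant features exceeded SLAMF6 in their r with CD84, while 8 exceeded CD84 in their r with SLAMF6 (up to 0.764). For SLAMF7, 2 distant features exceeded CD48. Such counts are not given here for other adjacent rows of the table.

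Other neighbours in the run were also correlated. CD48 and SLAMF7 had r = 0.708 (rho = 0.694, r = 0.677 without 2 lines), SLAMF6 and CD84 r = 0.694 (rho = 0.696, r = 0.668 without 2 lines), and CD84 and SLAMF1 r = 0.624 (rho = 0.664, r = 0.634 without 2 lines), each with permutation p = 1e-05. Of the 6 adjacent pairs of the cluster, 4 had r above 0.5, as had 23.1% of all adjacent rows. Those 4 lay above 87.1% (CD84 and SLAMF1) to 96.6% (SLAMF1 and CD48) of adjacent rows. The mean r of all adjacent rows was 0.276.

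The run ended between SLAMF7 and LY9. These neighbours had r = -0.0139 (rho = -0.0201, permutation p = 0.893), above just 16.2% of adjacent rows, and shared 0 of their 10 highest and 2 of their 10 lowest lines. With the 5 genes of the run, LY9 had r between -0.0139 and 0.317 and CD244 between 0.0847 and 0.268. Of these 10 pairs, 3 were called: CD84 with LY9 (r = 0.317, adjusted p = 0.00656), SLAMF6 with CD244 (r = 0.268, adjusted p = 0.0251) and CD84 with CD244 (r = 0.261, adjusted p = 0.0296; n = 93, Pearson correlation adjusted over all pairs of features; permutation p = 0.0019, 0.00909 and 0.0114). None of the 3 was called within the 46 shallower or the 47 deeper libraries. CD84 with LY9 had r = 0.332 among the shallower and 0.292 among the deeper libraries, CD84 with CD244 0.255 and 0.282, and SLAMF6 with CD244 0.328 and 0.175. LY9 and CD244, whose spans lie 1.90 kb apart, had r = 0.402 (rho = 0.432, permutation p = 5e-05, adjusted p = 0.000325, r = 0.439 without 2 lines). That r lay above 67.1% of adjacent rows, so many neighbours elsewhere in the table were more alike. Their r was 0.473 among shallower libraries and 0.279 among deeper ones, where it was not called. For CD244, 367 of the 13708 distant features had a higher r than LY9 had, and for LY9, 105 had a higher r than CD244 had.

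**Figure D3:**
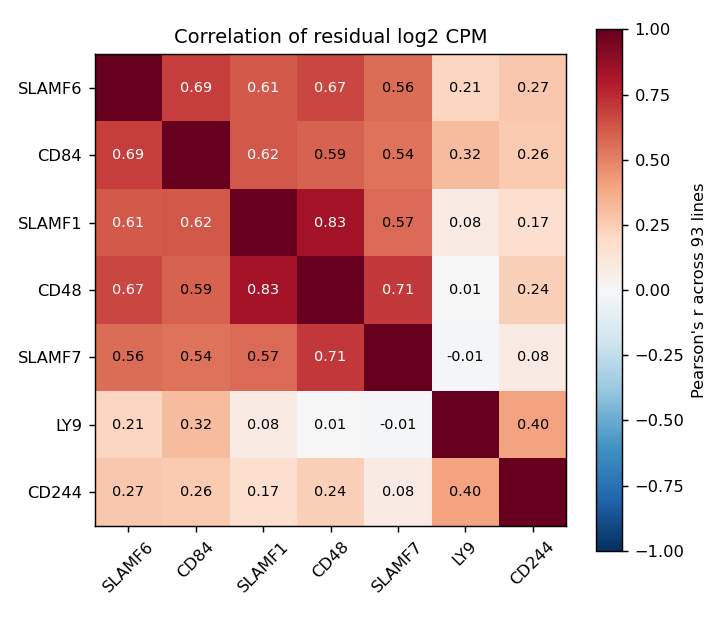
Pearson's r across 93 lines between the 7 genes in table order, on log2 CPM with library total and dynamic range removed. The square from SLAMF6 to SLAMF7 holds values of 0.54 to 0.83, while LY9 and CD244 reach at most 0.32 with those genes and 0.40 with each other.

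**Figure D4:**
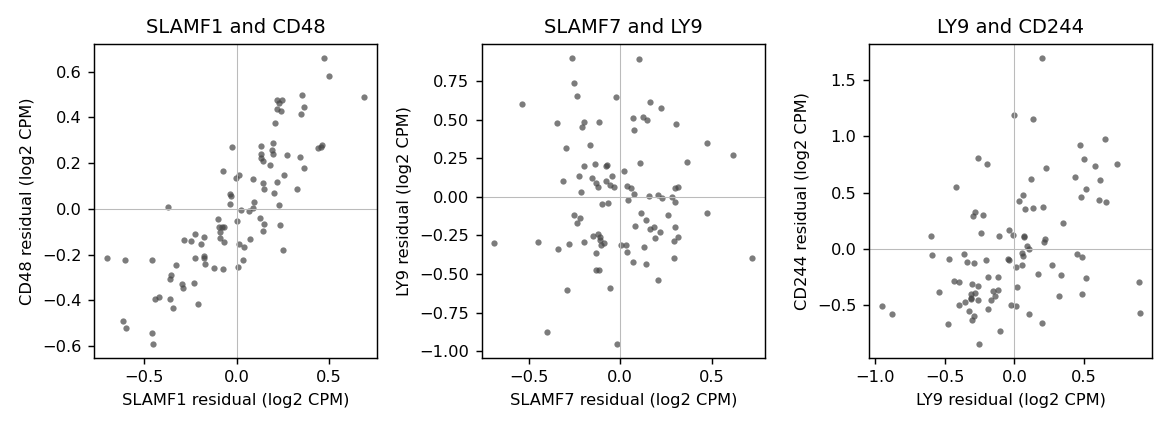
Residual log2 CPM of 3 pairs of adjacent genes, 1 point per line (n = 93). SLAMF1 and CD48 follow a line (r = 0.83), SLAMF7 and LY9 form a cloud (r = -0.01), and LY9 and CD244 lie between these (r = 0.40), with a few lines high in CD244 alone.

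The size of these correlations rested on what was removed. With 5 principal components removed, 11 of 21 pairs were called, against 20.7% of all pairs. With 10 removed, 2 of 21 pairs were called, against 17.4% of all pairs. SLAMF1 and CD48 kept r = 0.556 and SLAMF6 and CD84 r = 0.393. LY9 and CD244 then had r = -0.0877, and 0.0905 with 5 components removed, and were not called in either. The components are computed from all features and may hold differences between lines as well as between libraries, which cannot be told apart here.

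The rows on either side of the cluster were compared with the run of 5 genes. The row just before SLAMF6 had a mean r of -0.144 with them and the row before that -0.175. The row just after CD244 had a mean r of 0.356, and the next 0.383. Among the 20 rows before the cluster the median of this mean r was -0.0554, and 12 were below 0. Among the 20 rows after it the median was 0.221, and 4 were below 0. Only 3 of the 40 rows exceeded 0.5, and all of them lay at least 5 rows away from the cluster. Neighbouring rows with more signal had higher values: over the 40 rows, Spearman's rho between the median CPM of a row and its mean r was 0.567, a description over rows that share the same libraries. The part of signal level in these correlations was not tested.

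**Figure D5:**
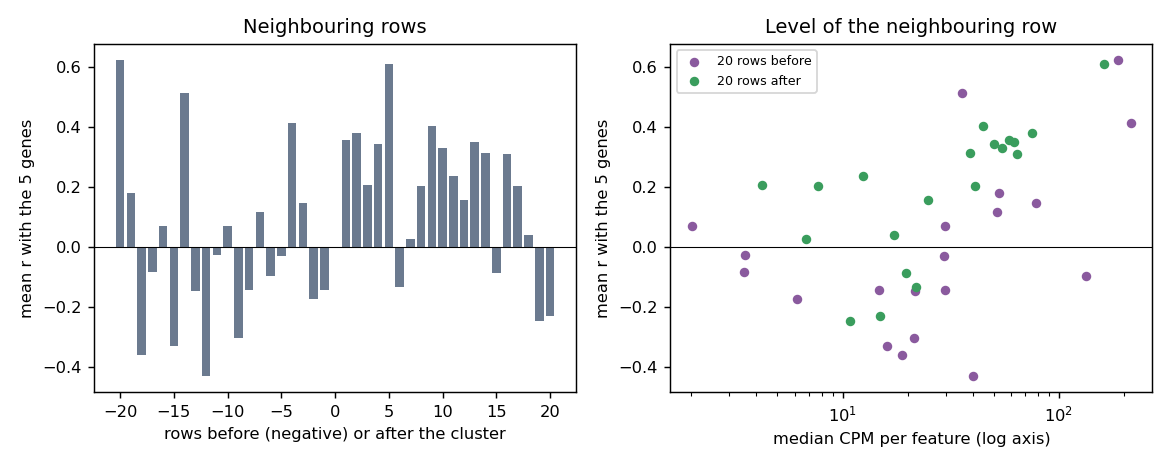
Mean r of each of the 20 rows before and 20 rows after the cluster with SLAMF6, CD84, SLAMF1, CD48 and SLAMF7, by distance in rows (left) and by the row's own median CPM (right, log axis). Both nearest rows before the cluster are below 0 and those just after it are 0.21 to 0.61 for 5 rows; rows with more signal lie higher.

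The feature most like the mean of the 7 genes, at least 100 rows away, was ENSG00000159958.6, with r = 0.813 over 93 lines, followed by ENSG00000216490.4 with r = 0.789. The files do not pair these identifiers with names. ENSG00000159958.6 had r = 0.788 with CD48 and 0.722 with SLAMF1, but 0.254 with LY9 and 0.350 with CD244.

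The cluster was also described on the deposited normal scores. Across lines the Spearman correlation of the authors' score with log2 CPM lay between 0.969 (LY9) and 0.985 (SLAMF1), against a median of 0.981 over the features tested. On the scores, with no covariate removed, 13 of 21 pairs were called, against 55.5% of all pairs 1 to 6 rows apart, with all 10 within the run from SLAMF6 to SLAMF7 among them (r from 0.534 to 0.867). CD244 scores ran from -1.87 to 3.41, and the highest scores of SLAMF7, LY9 and SLAMF6 were 3.10, 2.92 and 2.91.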

How the data were processed

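The deposited table gives whole-number read counts per gene for 93 libraries, and a second deposited table holds the authors' score of each gene and line, normal in form; HISAT2 2.2.1, bedtools and hg38 are named, per the submitters' processing notes, without role or order. The sources used here give no counted interval, read filter or recipe for the scores. Libraries were amplified with 14 PCR cycles, per the labels' protocols. TMM factors and the goodness-of-fit test came from edgeR 4.0.16 (R 4.3.3), log2 CPM with a prior count of 2; DESeq2 1.42.0 and Python 3.11.15 were also used. The genes, lists and named features were chosen with earlier results of these data known. Adjusted p-values run over all features tested, or all pairs 1 to 6 rows apart, in place of the planned adjustment over the cluster's pairs; permutation tests were two-sided with 100000 resamples. The planned pathway, flanking and marker lists were not used, since symbols could not be matched. Named were the 7 genes, the nearest 2 rows on each side and the 2 most alike features. The variability test was checked on simulated data over 13915 features: of 100 with a planted SD of 0.3 log2 it called 93, of 100 at 0.6 it called 100, and of 13715 others 6. Simulated features were independent and, where nothing was planted, had exactly the trended dispersion. In the data 18.6% of features were called, so the check does not give the rate of false calls there. Alternatives were other size factors, prior counts, filters, covariates, libraries and the scores.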

Additional observations from a re-analysis of the deposited data

How the results depend on the processing

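Under the alternatives, 151 values kept their direction and side of the threshold or stayed within their spread, 9 changed sign, 5 fell short of the threshold and 7 moved further; values short of the threshold throughout are among the 151. The number of cluster genes called variable was 6 as reported, 4 with 5 principal components and 3 with 10. It was 1 by DESeq2's dispersion outliers, which called 259 of all features against 2586 and are stricter by construction. Relative to trend, SLAMF1 changed sign to -0.0277 with 5 components, CD48 to -0.356 and -0.595 with 5 and 10, and SLAMF7 to -0.0407 without covariates and -0.144 with 5 and with 10 components (-0.144). The pairs called numbered 14, 11 with 5 components and 2 with 10. The falls to 4 genes and to 11 pairs with 5 components are counted among the 151. The median r of the 10 pairs from SLAMF6 to SLAMF7 was 0.618, and 0.337 and 0.213 with 5 and 10 components; that of the 10 pairs with LY9 or CD244 was 0.190, and 0.0580 with 10. LY9 and CD244 had 0.0905 with 5 and -0.0877 with 10 components, and SLAMF7 and LY9 changed sign to 0.0602 with 5. SLAMF7 minus SLAMF6 changed sign to -0.408 log2 without length scaling, by construction. The cause of the other changes was not tested. DESeq2 size factors and a prior count of 0.5 left the numbers of genes and pairs called as they were. Without the 10 shallowest libraries 12 pairs were called, 1 of them between LY9 or CD244 and the other 5 genes, against 3 with all libraries. No paired analysis was possible because all lines belong to the same group. CD244 in the shallowest libraries, with as few as 49 counts, is the value that depth limits most.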

Other observations

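The correlation of the cluster's genes with features more than 100 rows away, other rows of chromosome 1 included, was described by signal level. These features were divided into 5 classes by median CPM. In the class with the most signal, 18.8% of 2742 features had r above 0.5 with CD48, 14.3% with SLAMF1, 7.80% with SLAMF7, 7.66% with SLAMF6 and 2.92% with CD84. The same share was 0.401% for LY9 and 1.31% for CD244. In the class with the least signal the shares were 2.84% for CD48 and 2.37% for SLAMF1. These are descriptions over features that share the same libraries. They show that CD48 and SLAMF1, the pair most alike within the cluster, also varied with many strongly marked features elsewhere in the table, and that LY9 did so with few.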
